A study of Bos taurus with 4 samples.

Results

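The genes described here are *PAGE4*, *MAGEB16*, *MAGED2*, *BEX3* and *BEX5*, members of the MAGE, PAGE and BEX families, in inner cell masses (ICMs) of bovine (*Bos taurus*) embryos. They were picked by name after their ratios between the 2 culture media on these arrays were known, so the ratios are given as a description and no test of them is made. The array annotation assigned 9 probes to these 5 genes, of 43653 gene probes and 12544 named genes on the array. *BEX3* is written *NGFRAP1* in that annotation. All 5 genes lie on the X chromosome in the RefSeq annotation of ARS-UCD2.0.

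MAGE proteins share a domain with which many of them bind RING-type ubiquitin ligases and steer the proteins that these ligases mark. The type I MAGE genes, which include the MAGEB group, and the PAGE genes lie on the X chromosome and are known as cancer/testis genes, read mainly in germ cells, placenta and tumours and silenced elsewhere by DNA methylation. Type II MAGE genes such as *MAGED2* are read in many tissues. BEX genes encode small, largely unstructured proteins found in placental mammals, and they share a stretch of the X chromosome with the related TCEAL genes.

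The embryos were made in vitro from oocytes of slaughterhouse ovaries and, after fertilization, cultured for 4 days in synthetic oviductal fluid (SOF). They were then moved to naïve human stem cell medium (NHSM) or stayed in SOF until day 9 after fertilization, when ICMs were dissected. NHSM was a KO-DMEM based medium with serum replacement, insulin, LIF at 20 ng/ml, bFGF at 8 ng/ml, TGFβ1 at 1 ng/ml and 5 kinase inhibitors, which act on JNK, p38, PKC, GSK3 and MEK. Each of 4 two-colour arrays carried 1 NHSM pool and 1 SOF pool, of 11 to 24 ICMs each, with the NHSM pool in Cy3 on replicates 1 and 3 and in Cy5 on replicates 2 and 4. The medium differed in its base, its supplements and its inhibitors at once, so the part of any single component cannot be told apart. Dissection by hand left some trophectoderm cells with the ICMs, pools held embryos of both sexes, and RNA was amplified before labelling. In such pooled tissue, fewer cells of a type and less RNA per cell cannot be told apart, and the p-values below measure the spread between pools.

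The 95th percentile of the control spots of a channel served as its signal floor, and it lay between 83.5 and 140 intensity units in NHSM pools and between 91.3 and 125 units in SOF pools. Between 44.0% and 72.1% of gene probes were above it in NHSM pools and between 48.8% and 67.3% in SOF pools. *NANOG* and *SOX2*, which mark pluripotent ICM cells, were above the floor in every pool of both media by their brightest probes. Of 8 ICM markers 4 were measured, by 11 probes, of which 1 of *NANOG* (fitted log2 fold change -0.31) and 1 of *SOX2* (-0.32) were lower in NHSM while 9 did not pass, and their summed normalized level ranged from 5169 to 6618 units in NHSM pools and from 6568 to 7346 units in SOF pools. Trophectoderm markers (8 of 13 measured, 23 probes, 3 higher and 3 lower) summed to between 77548 and 96896 units in NHSM pools and between 87174 and 104102 units in SOF pools. The 3 higher probes were all of *PAG2*, and the 3 lower ones of *GATA2*, *KRT19* and *TFAP2A*. The largest part of the trophectoderm sum came from *TFAP2C* BTAA008929 (36286 to 44294 scanner units). Its ratios followed the dye (fitted dye effect -0.67), as did those of *GATA3* BTAA031940 (0.89), so this sum is a poor measure of such cells. Hypoblast markers (6 of 9, 18 probes, 3 lower) summed to between 10013 and 12882 units in NHSM pools and between 10475 and 11942 units in SOF pools. Markers of cumulus and granulosa cells (7 of 9, 22 probes, 2 higher and 1 lower) summed to between 52259 and 65576 units in NHSM pools and between 52191 and 91124 units in SOF pools. Most of that sum came from *AMH* BTAA032183 (14097 to 63119 scanner units) and *STAR* BTAA037780 (18162 to 63836 units). The other probes of *AMH* and *STAR* read at most 912 units. Ratios of *AMH* BTAA032183 followed the dye, with a fitted dye effect of 0.71, so this sum is no measure of such cells. No probe of these lists read 0, and *TFAP2C*, *FGFR2*, *GATA4*, *HNF4A*, *CYP19A1* and *FOXL2* each had a probe below the floor in all 8 pools. In either direction 18.2% of the ICM, 26.1% of the trophectoderm, 16.7% of the hypoblast and 13.6% of the cumulus and granulosa probes passed. Of all gene probes 8.43% passed, and 17.1% of those above the floor. Above the floor lay 6 of the 11, 19 of the 23, 9 of the 18 and 14 of the 22 probes of these lists. The part of these cell types in the results below was not tested.

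*PAGE4*, a small disordered protein known in humans from prostate, placenta and testis, had the brightest signals of its own probe in NHSM pools. Its only probe, BTAA000075, read 3770, 8047, 6802 and 6270 intensity units in NHSM pools 1 to 4, against 2004, 2663, 3608 and 1670 units in the SOF pools of the same arrays. Every NHSM pool was above every SOF pool, and all 8 pools were above the floor. After loess normalization the log2 ratio of NHSM over SOF was 1.44, 1.21, 0.99 and 1.19 on replicates 1 to 4, a mean of 1.21 ± 0.19 (SD, n = 4 arrays) or 2.31-fold. *PAGE4* was thus higher in NHSM with either dye orientation.

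*MAGEB16*, a type I MAGE gene, had 2 probes that gave different pictures. Probe BTAA016360 read 217, 362, 318 and 370 units in NHSM pools 1 to 4, against 81.9, 141, 104 and 148 units in SOF pools. The media did not overlap, and the probe was above the floor in all 4 NHSM pools and in 3 of 4 SOF pools. Its log2 ratios were 1.40, 1.34, 1.51 and 0.96, with a mean of 1.30 ± 0.24 (SD, n = 4), or 2.47-fold.

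The other *MAGEB16* probe, BTAA019427, was dim apart from 1 spot. It read 117, 121, 136 and 102 units in NHSM pools, against 67.7, 99.9, 650 and 96.9 units in SOF pools. SOF pool 3 stood far above the others in this spot, and the median over the pixels of the spot was as high, at 649 units. The log2 ratios were 0.46, 0.55, -2.35 and 0.20, with a mean of -0.29 ± 1.38 (SD, n = 4), and 0.42 when replicate 3 was left out. This probe was above the floor in 3 NHSM pools and in 1 SOF pool, so it gave no usable ratio for the gene.

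*MAGED2*, a type II MAGE gene whose loss in humans causes a salt-losing kidney disorder before birth, showed the smallest ratio of the 5 genes by its brightest probe. Probe BTAA005334 read 543, 851, 679 and 873 units in NHSM pools, against 562, 591, 559 and 501 units in SOF pools. The scanner signals overlapped between media, since on replicate 1 the SOF signal was the higher one before normalization. After loess the log2 ratios were 0.29, 0.36, 0.19 and 0.27, a mean of 0.28 ± 0.07 (SD, n = 4) or 1.21-fold, and the normalized levels of the media did not overlap. Probe BTAA015636 gave -0.49, 0.36, 0.12 and 0.14, a mean of 0.03 ± 0.37, and its SOF pool 1 had a mean of 351 units in a spot with a pixel median of 229 units. Probe BTAA036678 was below the floor in all 8 pools, and no ratio is read from it.

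*BEX3* encodes a protein that binds the intracellular part of the p75 neurotrophin receptor in mammalian cells, and it was higher in NHSM in each array pair. Its probe BTAA007290 read 506, 890, 788 and 815 units in NHSM pools, against 278, 305, 299 and 252 units in SOF pools. The lowest NHSM pool was well above the highest SOF pool, and all were above the floor. The log2 ratios of 1.16, 1.42, 1.30 and 1.20 had the smallest spread of the 4 genes with large ratios, with a mean of 1.27 ± 0.11 (SD, n = 4), or 2.41-fold.

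*BEX5*, a less studied gene of the same family, was measured by 2 probes that gave like values. Probe BTAA003483 read 368, 579, 618 and 501 units in NHSM pools, against 189, 263, 274 and 204 units in SOF pools, and its log2 ratios were 1.21, 1.04, 1.08 and 0.86 (mean 1.05 ± 0.14, SD, n = 4, or 2.07-fold). Probe BTAA016584 read 329, 579, 533 and 523 units in NHSM pools, against 194, 242, 189 and 201 units in SOF pools, with log2 ratios of 0.99, 1.16, 1.41 and 0.94 (mean 1.13 ± 0.21, or 2.18-fold). In both probes all NHSM pools were above all SOF pools and every pool was above the floor. The order of the arrays was not shared, since replicate 1 had the highest ratio with 1 probe and replicate 3 with the other.

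**Figure D1:**
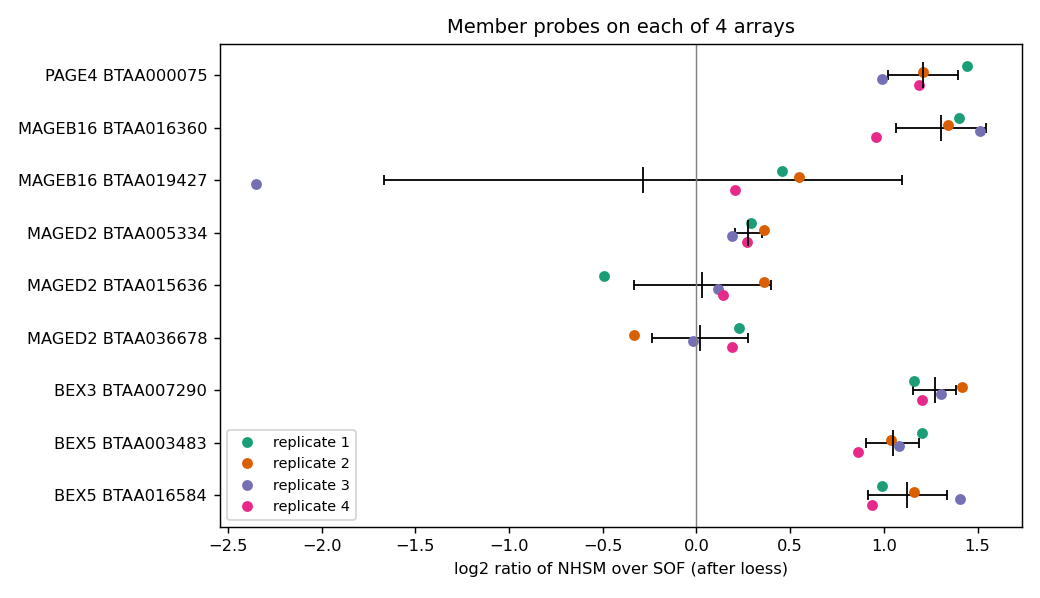
Log2 ratio of NHSM over SOF (x axis) of the 9 member probes (y axis) on each of 4 arrays after loess. Coloured points are arrays, vertical ticks the mean and bars the SD. The probes of *PAGE4*, *BEX3*, *BEX5* and the brighter *MAGEB16* probe lie between 0.86 and 1.51 on every array, and *MAGEB16* BTAA019427 reaches -2.35 on replicate 3.

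**Figure D2:**
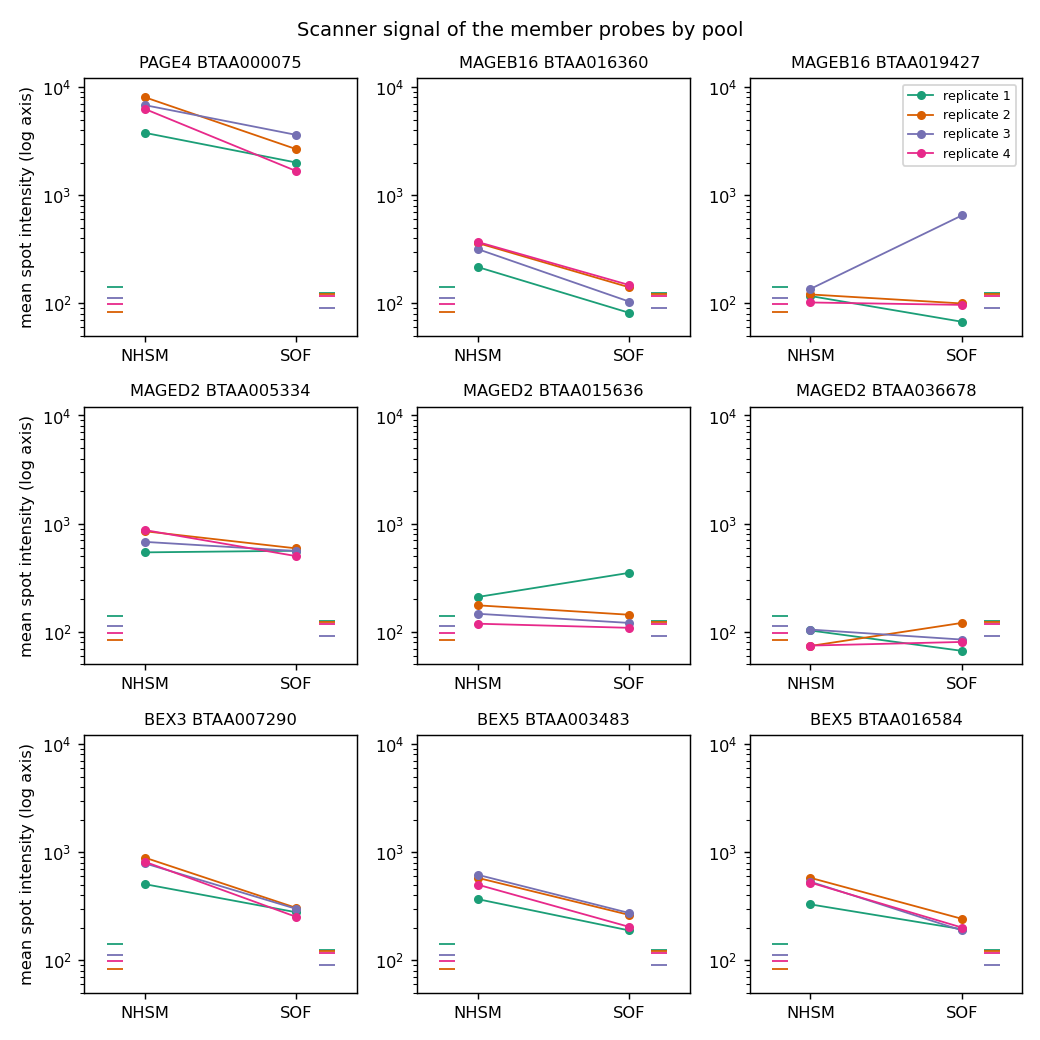
Mean spot intensity in scanner units (log axis, not normalized) of each member probe in the NHSM pool (left) and the SOF pool (right) of the same array, joined by a line per replicate. Short ticks at the sides are the floor of each channel. *PAGE4* reads between 3770 and 8047 units in NHSM pools and between 1670 and 3608 units in SOF pools, and *MAGEB16* BTAA019427 reads 650 units in SOF pool 3.

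Of the 9 member probes, 5 were at least 1.5-fold higher in NHSM on all 4 arrays, which held for 0.277% of all gene probes (121 of 43653). The normalized levels of 6 member probes did not overlap between media with NHSM higher, against 3.96% of all probes. These shares follow from how the genes were picked and are not evidence about the families. Ratios of *PAGE4*, *BEX3* and *BEX5* moved little between alternative ways of processing, lying between 1.10 and 1.32 for *PAGE4*, between 1.22 and 1.33 for *BEX3* and between 1.00 and 1.23 over the probes of *BEX5*. Those of the brightest probes of *MAGEB16* and *MAGED2* lay between 1.21 and 1.47 and between 0.25 and 0.34. The mean over all probes of the gene was lower, at 0.51 and 0.11. Those means include the probes from which no ratio could be used.

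Whether relatives of the 5 genes changed was asked of the other family genes, found by their symbols. The annotation gave 11 of them with 24 probes, namely *BEX2*, *MAGEA11*, *MAGEE2*, *MAGEH1*, *MAGEL2*, *NDN*, *NSMCE3* (written *NDNL2* there), *TCEAL1*, *TCEAL4*, *TCEAL7* and *TCEAL8*. The tables used hold symbols without descriptions, so MAGE-like genes known by a locus number, which the study also names, are not analysed here, and the counts below hold for these 11 genes and not for the families as a whole. Using limma with a Benjamini-Hochberg adjusted p of 0.05, 1 of these probes passed as higher in NHSM and 1 as lower, and 22 failed to pass. That is 8.33% of the probes, against 8.43% of all gene probes in either direction (4.42% higher and 4.01% lower). Of the probes above the floor, where 17 of the 24 lay, 17.1% passed. The share of these 24 probes was thus near that of all gene probes and below that of the probes above the floor. None of the 24 probes passed with at least 1.5-fold, as did 1.75% of all probes (0.848% higher in NHSM). The median log2 fold change of the 24 probes was 0.01, against -0.01 for all probes.

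The higher gene was *NDN*, the type II MAGE protein necdin, which restrains cell growth in neurons and is imprinted in humans and mice. Probe BTAA010506 read 906, 1016, 1430 and 1409 units in NHSM pools, against 911, 798, 858 and 845 units in SOF pools. In scanner signal only NHSM pool 1 fell within the range of the SOF pools. Its log2 ratios of 0.38, 0.16, 0.65 and 0.15 gave a fold change of 0.34 ± 0.07 on the log2 scale (standard error over 4 arrays, adjusted p = 0.0325 from limma). The call was lost without the dye term (adjusted p = 0.141), with separate channels (0.425) and without replicate 2, 3 or 4 (0.148, 0.0832 and 0.141), and the other *NDN* probe, near the floor, gave 0.02.

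The lower gene was *TCEAL4*, a BEX relative that resembles the transcription elongation factor TFIIS. Probe BTAA000713 read 224, 261, 295 and 262 units in NHSM pools, against 273, 347, 305 and 269 units in SOF pools. Each NHSM pool was below the SOF pool of its own array, while the scanner signals of the media overlapped. The ratios were -0.06, -0.47, -0.14 and -0.43, a log2 fold change of -0.28 ± 0.06 (standard error, n = 4, adjusted p = 0.0423 from limma). The other 3 probes of *TCEAL4* gave -0.06, 0.00 and -0.07 and did not pass. The call was lost under 7 of 11 alternatives, among them without replicate 2, 3 or 4 (adjusted p = 0.232, 0.100 and 0.190).

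The other relatives among these 11 genes had no probe that passed. *TCEAL8* gave 0.30 ± 0.08 (adjusted p = 0.0823 from limma) and 3 *BEX2* probes gave 0.29, 0.15 and 0.26. *MAGEA11*, a type I gene, and both probes of the imprinted gene *MAGEL2* were below the floor in all 8 pools. *NSMCE3*, the MAGE subunit of the SMC5/6 complex that guards chromosomes during repair, gave -0.13, -0.03 and -0.08 with its 3 probes. The ratios of 2 bright probes, *BEX2* BTAA027817 and *MAGEH1* BTAA001045, followed the dye. *BEX2* BTAA027817 read between 10100 and 55856 units over the 8 pools, and its ratios were -0.83 and -1.91 on the arrays with NHSM in Cy3 and 0.57 and 0.73 on those with NHSM in Cy5, and the fitted dye effect was 1.01.

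**Figure D3:**
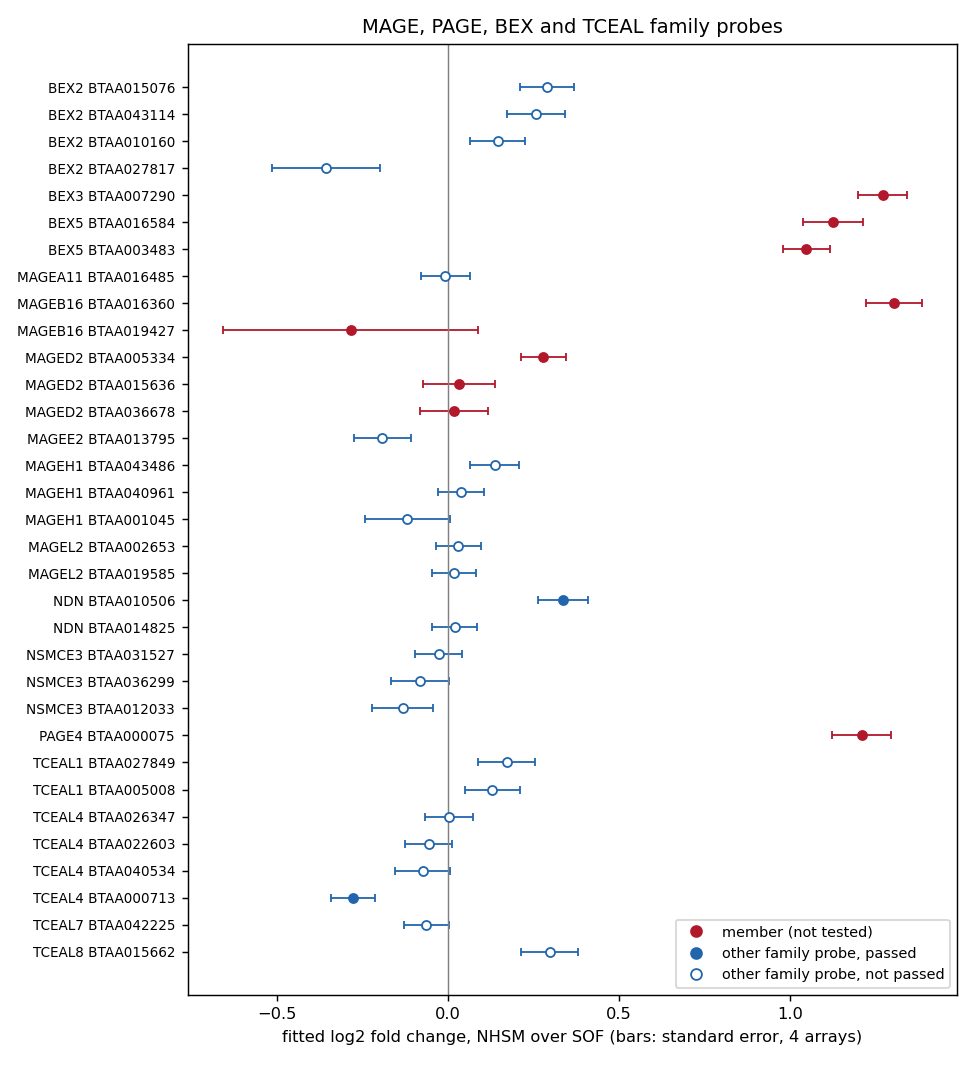
Fitted log2 fold change of NHSM over SOF (x axis, bars are the standard error over 4 arrays) of all 33 family probes (y axis, by gene). Red points are the 5 member genes, filled blue points other family probes that passed and open points those that did not. The *NDN* probe that passed lies at 0.34 and the *TCEAL4* one at -0.28, while the members *BEX3*, *BEX5* and *PAGE4* lie between 1.05 and 1.27.

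Of 20 genes whose products are known to bind MAGE or BEX proteins or to act with them, 16 had a probe, with 32 probes in all. In limma 4 of these probes (12.5%) passed, 2 of them higher and 2 lower in NHSM, and 28 did not, against 8.43% of all gene probes and 17.1% of those above the floor, where 18 of the 32 lay, with a median log2 fold change of -0.02. Both lower probes belonged to *NGFR*, the p75 neurotrophin receptor that the BEX3 protein binds. *NGFR* BTAA002844 read 913, 1412, 1203 and 1355 units in NHSM pools, against 1794, 2119, 1717 and 1601 units in SOF pools. All NHSM pools were below all SOF pools. The ratios of -0.55, -0.85, -0.58 and -0.86 gave a log2 fold change of -0.71 ± 0.06 (standard error, n = 4, adjusted p = 0.00151 from limma), and it passed under all 11 alternatives, with values between -0.73 and -0.62. Probe BTAA036466 gave -0.42 ± 0.07 (adjusted p = 0.0168), which was lost without replicate 2 or 4 (0.0942 and 0.0530), and the remaining probe, below the floor, gave -0.05. *BEX3* was higher and both of these *NGFR* probes were lower in NHSM on each of the 4 arrays. Since *BEX3* was picked with its ratios known, this is a description, and a link between the 2 genes was not tested.

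The higher partners were *SMC6*, an ATPase of the SMC5/6 complex, and *PJA2*, a RING-type ubiquitin ligase. *SMC6* read 314, 494, 585 and 529 units in NHSM pools, against 265, 373, 330 and 324 units in SOF pools. NHSM pool 1 lay within the range of the SOF pools and the other 3 above it. Its log2 fold change was 0.44 ± 0.07 (standard error, n = 4, adjusted p = 0.0111 from limma), lost without the dye term (0.0592), with separate channels (0.0984) and without replicate 2 (0.0619). *PJA2* BTAA015593 gave 0.32 ± 0.07 (adjusted p = 0.0358), higher on 3 of 4 arrays and lost under 7 of 11 alternatives, while its other probe did not pass. *TRIM28*, a ligase that several MAGE proteins bind, and *USP7*, a deubiquitinase, did not pass.

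**Figure D4:**
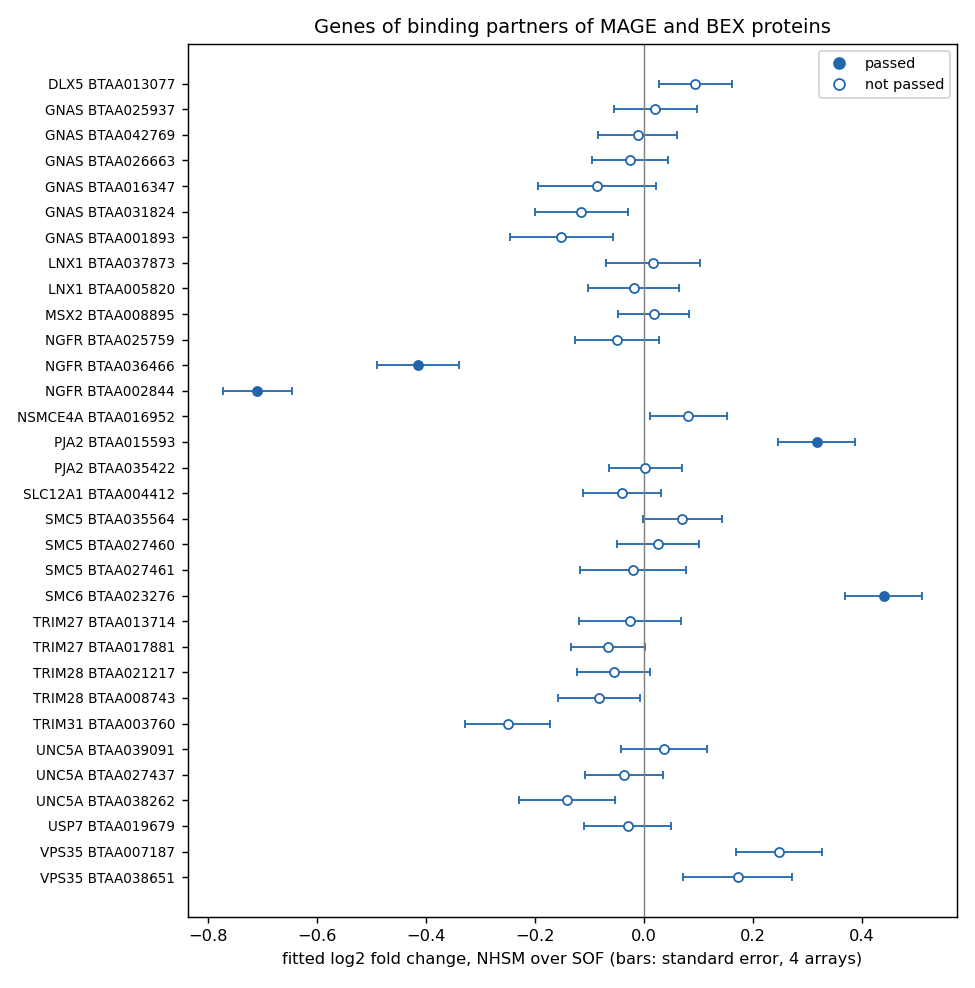
Fitted log2 fold change of NHSM over SOF (x axis, bars are the standard error over 4 arrays) of 32 probes of partner genes (y axis). Filled points passed and open points did not. *NGFR* BTAA002844 lies lowest at -0.71 and *SMC6* highest at 0.44.

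Genes of DNA methylation and of the chromatin marks linked to it were counted because methylation is known to silence cancer/testis genes. Of 13 such genes 12 had a probe named by symbol, and *DNMT3B* had none. Of their 30 probes 14 were above the floor in all pools of a medium. In limma 0 of the 30 passed, and the 4 with an unadjusted p under 0.05 were all lower in NHSM. Over all gene probes 8.43% passed (17.1% of those above the floor), and 8321 of 43653 had an unadjusted p under 0.05. The log2 fold changes of the 30 probes lay between -0.26 and 0.09. The maintenance methyltransferase *DNMT1* gave 0.01, 0.07 and 0.09 with its 3 probes above the floor, and the lowest value, -0.26 ± 0.09, came from the de novo methyltransferase *DNMT3A* (adjusted p = 0.130). Levels of DNA methylation were not measured on these arrays. Of 27 other X-linked cancer/testis genes 6 had a probe named by symbol, and 0 of their 8 probes passed, with 1 at an unadjusted p under 0.05, against the same 8.43% of all gene probes. The remaining genes of the list, among them *CT47B1*, are not analysed here, so the count says nothing of them. The testis gene *FATE1*, at -0.20, was the only one of the 6 above the floor in all pools of a medium.

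All 5 genes are X-linked. Of the 888 probes placed on the X chromosome by their symbol, 10.0% passed at any fold in either direction. Over all gene probes, with or without a symbol, the share was 8.43%. The 888 probes include the 9 member probes, which were picked with their ratios known, so the X share is in part a result of that choice. No share at a minimum of 1.5-fold was taken for this chromosome. The annotated order of genes was used to ask whether the genes next to each one had changed too. The 5 nearest protein-coding genes with a probe on either side of each member made 50 genes with 103 probes. Of these probes 9.71% passed, against 8.43% of all gene probes and 17.1% of those above the floor, where 39 of the 103 lay. The 8 probes higher in NHSM came from 5 genes and the 2 lower from 2 genes, while 93 did not pass. The family genes *MAGEH1*, *TCEAL1*, *TCEAL4*, *TCEAL7* and *TCEAL8* are among these 50 genes, so their probes entered both counts. *BEX3* and *BEX5* lie closest to each other among the members, with 29 protein-coding genes between them. None of the 10 neighbours of *MAGED2* passed, and of the 10 neighbours of *PAGE4* only the outermost on 1 side did, *NUDT11*, an inositol phosphate phosphatase (0.57 ± 0.07, adjusted p = 0.00377 from limma), in 1 of 3 probes, above the floor in 3 NHSM pools and 1 SOF pool.

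*TMEM47*, a membrane protein of cell junctions and the nearest gene with a probe on 1 side of *MAGEB16* (3 genes away), was higher in NHSM. It read 602, 1059, 833 and 832 units in NHSM pools, against 544, 561, 573 and 399 units in SOF pools, and no pool of the media overlapped in scanner signal. Its log2 fold change was 0.56 ± 0.07 (standard error, n = 4, adjusted p = 0.00458 from limma) and passed under all 11 alternatives.

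Around *BEX5* genes went in both directions. *TSPAN6*, a tetraspanin, was higher with 3 of 4 probes (0.43, 0.40 and 0.47), and its brightest probe read 3366, 5246, 4450 and 5343 units in NHSM pools, against 3598, 2800, 3581 and 2489 units in SOF pools. Only NHSM pool 1 fell within the range of the SOF pools in scanner signal. *ARMCX3*, an armadillo repeat protein of mitochondria, was higher with both probes (0.51 and 0.33), of which the one at 0.33 was above the floor in no SOF pool and lost its call under 5 of 10 alternatives. *ARMCX6* was higher with 1 of 5 probes (0.63), while its brightest probe gave 0.03. *ARMCX2* of the same family was lower (-0.36 ± 0.07, adjusted p = 0.0219), with 163, 187, 239 and 232 units in NHSM pools, against 257, 236, 270 and 231 units in SOF pools, where the scanner signals of the media overlapped. Its call was lost with median centring (adjusted p = 0.0570), with separate channels (0.124) and without replicate 2 or 4 (0.107 and 0.111). The brightest *TSPAN6* probe did not pass without replicate 2 (0.0737). The nearest genes with a probe on either side of *BEX5* and *BEX3* did not pass. They lay up to 11 genes away in the annotated order, and the genes next to *BEX3* were not analysed here. Among the neighbours of *BEX3* the single call was the *TCEAL4* probe above.

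**Figure D5:**
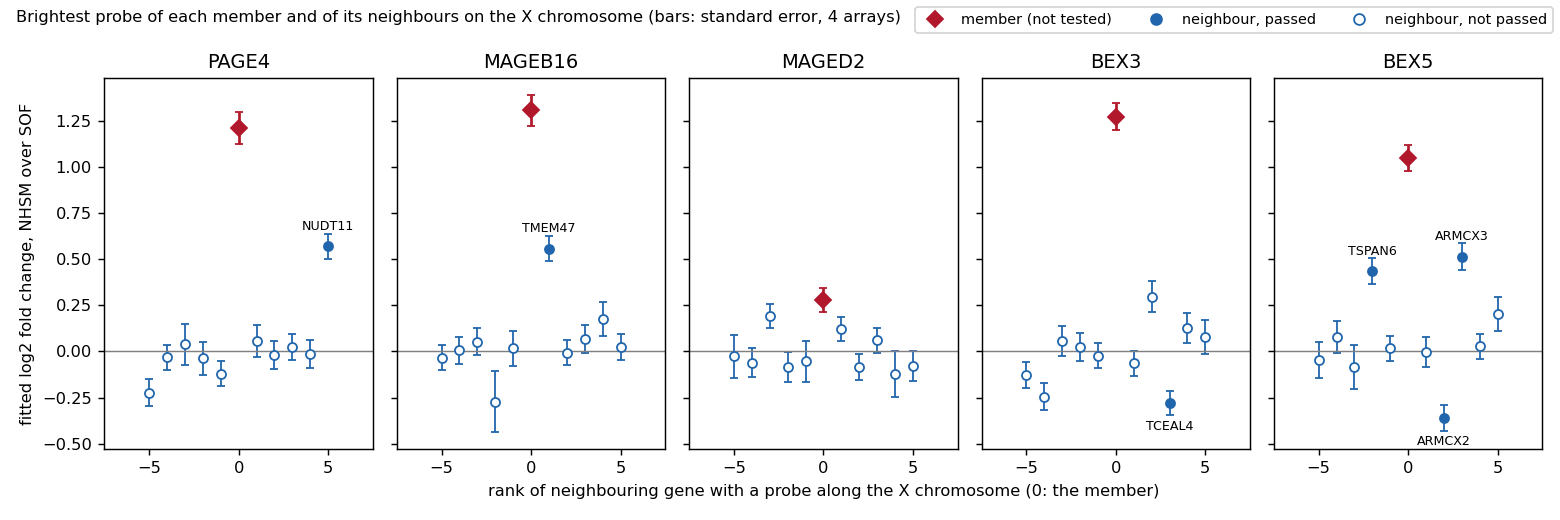
Fitted log2 fold change of NHSM over SOF (y axis, bars are the standard error over 4 arrays) of the brightest probe of each member (red diamond) and of its 5 nearest protein-coding genes with a probe on each side (x axis, rank in the annotated order). Filled points passed and are named. The highest of these neighbours, *NUDT11* at 0.57 and *TMEM47* at 0.56, lie below *PAGE4* and *MAGEB16*.

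Because embryos of both sexes were pooled, Y-linked genes were read beside these X-linked results. Of 12 Y-linked genes 3 had a probe. *EIF1AY*, a translation initiation factor, read 751, 1007, 823 and 753 units in NHSM pools, against 450, 542, 417 and 467 units in SOF pools. The NHSM pools were all above the SOF pools. Its log2 ratios of 1.09, 0.73, 0.89 and 0.17 gave 0.72 ± 0.10 (standard error, n = 4, adjusted p = 0.00690 from limma). The X-linked copy *EIF1AX*, a close relative whose RNA the probe may also bind, gave 0.55, 0.48 and 0.35 with its 3 probes, of which the first 2 passed, and was looked up after the value of *EIF1AY* was seen. *DDX3Y* (0.16) and *SRY* (-0.07) were near the floor and did not pass. The summed level of the 3 Y-linked probes ranged from 858 to 1232 units in NHSM pools and from 601 to 752 units in SOF pools. Most of that sum came from the *EIF1AY* probe, so it adds nothing to the *EIF1AY* reading. The part of embryo sex in the ratios of the 5 genes was not tested on these arrays.

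Genes with the most similar pattern were sought by the root mean square difference of their 4 log2 ratios from those of the member's brightest probe, over 13754 probes above the floor of 8492 named genes. The 4 ratios come from the same arrays, and the closest patterns are a description. For *PAGE4* these were *MCC* (difference 0.12 on the log2 scale), *TUBA4A*, an alpha-tubulin (0.14), and *ARRDC4*, an alpha-arrestin (0.21). For *MAGEB16* they were *CFAP206*, a protein of cilia (0.15), *LDHA*, lactate dehydrogenase A (0.15), and *PTER* (0.18). For *BEX3* they were *DHRS9*, a short-chain dehydrogenase (0.09), *PTER* (0.16) and *TUBA4A* (0.18). For *BEX5* they were *ATP6V0D2*, a proton pump subunit (0.09), *MAPK13*, a p38 kinase (0.10), and *DIP2C* (0.11). *MAGED2*, whose ratios were small, had closer matches, with *EGFL8* (0.02), *ARL2BP* (0.03) and *SLC35B2* (0.04). None of these genes lies on the X chromosome, but only 888 of the 27952 named probes were placed there and the members themselves were left out. Few X-linked genes could thus appear among them, and nothing is read from their absence.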

How the data were processed

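The 4 arrays were Agilent bovine V2 two-colour arrays. The authors amplified RNA in a double round, hybridized 1 NHSM and 1 SOF pool per array, and quantified spots with Imagene. They then applied loess, removed dye bias gene by gene and ran MAANOVA. The deposited scanner files hold the spot signal and background intensity on a linear scale, not normalized. The deposited table of the series gives log2 ratios (Cy5 over Cy3) after the authors' normalization and dye correction, and served as an alternative.

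Mean intensities of 43653 gene probes (1567 control spots had weight 0 and were left out) received no background correction and were loess-normalized per array in limma 3.58.1 under R 4.3.3. Each probe was fitted for the medium (NHSM over SOF) and the dye (2 residual and 5.33 prior degrees of freedom), and p-values were adjusted by Benjamini-Hochberg over all gene probes. A probe "passed" where its adjusted p was below 0.05, whatever its fold. The fit was tested on simulated data first. Levels per pool used Aquantile scaling between channels after loess. The floor of each channel was the 95th percentile of the spots of 2 control probes. The pools of 1 array share its spots, so array pairs them, and their deviations from the mean of their medium correlated with r of 0.660, 0.410, 0.330 and 0.408, against at most 0.212 with a pool on another array. The number of arrays limits the precision.

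Symbols came from the array's annotation table, with 1982 updated through RefSeq (ARS-UCD2.0), which was used for names, chromosomes and gene order. The members and all gene lists were chosen with earlier results of these data known. All probes of the members are described. Family genes were found by symbol, and the genes that passed are named for each list. For each member 3 genes with the most similar ratios are named. Alternatives covered the background correction, normalization, the deposited ratios, the dye term, separate channels without the array block, each replicate left out, a filter on dim probes, an intensity trend, a minimum fold and the mean over probes.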

Additional observations from a re-analysis of the deposited data

Results flagged for a closer look

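Over 75 groups of 4 values examined (ratios and normalized levels of the 9 member probes and of the family, partner, neighbour and Y-linked probes that passed), 5 had a highest or lowest sample set apart from the other 3 by Dixon's criterion, where chance gives about 1 in 20. The log2 ratio of *MAGEB16* BTAA019427 on replicate 3 was -2.35, against 0.46, 0.55 and 0.20 on the other arrays, and its SOF log2 level in replicate 3 was 9.30, against 6.29, 6.48 and 6.55 in the other SOF pools. The NHSM log2 level of *MAGED2* BTAA005334 in replicate 3 was 9.27, against 9.49, 9.51 and 9.50 in the other NHSM pools. The SOF log2 level of *ARMCX2* BTAA000838 in replicate 2 was 7.81, against 8.07, 8.04 and 8.04. The NHSM log2 level of *TSPAN6* BTAA001020 in replicate 1 was 12.22, against 12.04, 12.02 and 12.04.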

How the results depend on the processing

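All ratios of *PAGE4*, *BEX3*, *BEX5* and *MAGEB16* BTAA016360 stayed above 0 under every alternative run. Averaged over all probes of the gene, *MAGEB16* gave 0.51 and *MAGED2* 0.11 on the log2 scale. The sign of *MAGEB16* BTAA019427 was kept under 8 of 9 alternatives, that of *MAGED2* BTAA015636 under 6 and that of *MAGED2* BTAA036678 under 4. The count of other family probes that passed, 2, became 0 without the dye term, 0 with separate channels, 0 at a minimum of 1.5-fold and 4 with only probes above the floor, and spanned 0 to 5 when single replicates were dropped. The count over all probes, 3679, became 1830 without the dye term and 764 at 1.5-fold, and spanned 1642 to 4761 on dropping replicates. Partner and DNA methylation probes that passed, 4, became 2 without the dye term and spanned 1 to 8 on dropping replicates, and neighbours, 10, spanned 4 to 15. Without replicate 2 the counts were 0 of the family, 1642 of all probes, 1 of partners and methylation and 4 of neighbours, and without replicate 4 they were 0, 1799, 2 and 6. Without replicate 1 they were 5 of the family and 8 of partners and methylation, and without replicate 3 they were 1 of the family. The cause was not tested. Without the block that pairs the pools of an array (separate channels), 1102 of all probes passed, 2 of partners and methylation and 2 of neighbours. Of all probes that passed, 52.4% were higher in NHSM, and 67.3% with median centring in place of loess. With the floor at the 99th percentile, 40.7% of probes were above it in NHSM pools and 40.5% in SOF pools, against 61.6% and 57.6% with the 95th. Ratios of probes near the floor understate the difference between pools, and 4 arrays limit every value.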
